A study of Xenopus laevis with 4 samples.

Results

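The let-7 microRNAs and the miRNAs that share genomic clusters with them in vertebrates, miR-99, miR-100 and miR-125, were examined in embryonic skin of the frog Xenopus laevis before and after ciliated cells appear. The members were all rows of the deposited miRNA table whose name begins with let-7 (6 rows: let-7a, let-7b, let-7c, let-7f, let-7g and let-7i) and all rows of miR-99, miR-100 and miR-125 with any suffix (3 rows: miR-99, miR-100 and miR-125b), 9 of 98 listed miRNAs in all. The rows carry Xenopus tropicalis names. Small RNA was sequenced from epidermal explants of embryos fertilised in vitro, frozen at stage 11.5 (gastrula, labelled non ciliated) or stage 26 (tailbud, labelled ciliated), with no treatment or genetic change given for either stage. Each stage had 2 libraries, a and b, described as technical replicates of 1 pool of 50 explants, so p-values speak for the spread of libraries and not of pools of embryos. Below, early means stage 11.5 and late means stage 26, and where values come in pairs library a is given before b. Ciliation cannot be told apart from developmental age here.

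let-7 was found in the worm Caenorhabditis elegans as a regulator of developmental timing, and in vertebrates its mature form is known to accumulate as cells leave the embryonic state. In early embryonic and stem cells the RNA-binding protein Lin28 is known to block the maturation of let-7 precursors. miR-125 is the vertebrate relative of worm lin-4, another timing miRNA. miR-99 and miR-100 belong to 1 family, and in vertebrates they are encoded next to some let-7 and miR-125 genes. Gene positions were not available here. Which of the listed let-7 rows share a cluster with the partner rows in Xenopus was therefore not checked.

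The mature sequences, as listed in the deposited table with T for U, are shown because the rows differ from each other by so few bases. They run 5′ to 3′, and capitals mark the seed, bases 2 to 8, which leads target pairing.
let-7b: tGAGGTAGtagtttgtgtagtt
let-7i: tGAGGTAGtagtttgtgctgt
let-7f: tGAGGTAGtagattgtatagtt
let-7a: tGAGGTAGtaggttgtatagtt
let-7c: tGAGGTAGtaggttgtatggtt
let-7g: tGAGGTAGttgtttgtacagt
miR-99: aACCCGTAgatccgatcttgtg
miR-100: aACCCGTAgatccgaacttgtg
miR-125b: tCCCTGAGaccctaacttgtga

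All 6 let-7 rows share the seed GAGGTAG, and no other listed miRNA has it. miR-99 and miR-100 share ACCCGTA, and miR-125b alone has CCCTGAG. With positions counted from 1 at the 5′ end, let-7a differs from let-7f by G12A alone and from let-7c by A19G alone, over 22 bases. let-7b and let-7i share their first 17 bases and differ by T18C and A19T over the 21 bases compared. let-7a differs from let-7b by G12T and A17G, and miR-99 differs from miR-100 by T16A alone. How many mismatches were allowed when reads were assigned is not stated in the sources used here, so a read with an error at 1 of these positions could have been counted for a neighbouring row.

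The early libraries held 22668 and 30406 miRNA reads and the late ones 46892 and 41878. Values are given as deposited, in CPM, the reads of a row scaled to a total of 1000000 over the listed miRNAs. The early embryonic miR-427 alone held 87.0% and 81.7% of reads early and 7.57% and 6.95% late, so the room left for all other miRNAs differed between the stages. Changes are therefore given in 3 ways: as deposited CPM, after scaling by the trimmed mean of M values (TMM), and with miR-427 and its relative miR-428 left out of the totals. TMM moved stage 26 down against stage 11.5 by 2.02 on the log2 scale (4.05-fold). The median fitted log2 change of the 52 tested miRNAs was 2.27 in CPM, 0.43 after TMM scaling and -0.13 with miR-427 and miR-428 left out. The labelled tissue was checked with 8 listed miRNAs of epidermis and ciliated cells, which held 5.75% and 6.58% of reads early and 60.7% and 62.6% late. With miR-427 and miR-428 out of the totals they held 40.7% ± 6.13 and 66.8% ± 1.13 (SD, n = 2). After TMM scaling 3 of their 7 tested rows were called higher, against 30.8% of all tested miRNAs. In deposited CPM all 7 were, against 71.2%. Of these miRNAs, the skin miRNA miR-205a was near 0, with 1 read in all.

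The let-7 rows together held fewer reads at stage 26, and the set of rows carrying them changed in part. let-7b and let-7f had reads at both stages, let-7i early alone, and let-7a, let-7g and let-7c (1 read) late alone. The let-7 reads numbered 115 and 119 early and 57 and 49 late, although the late libraries were deeper. This was 0.507% and 0.391% of miRNA reads at stage 11.5, with exact (Clopper-Pearson) 95% intervals of 0.419% to 0.609% and 0.324% to 0.468%. At stage 26 it was 0.122% (0.0921% to 0.157%) and 0.117% (0.0866% to 0.155%). The stages did not overlap, and the mean share went from 0.449% ± 0.0820 to 0.119% ± 0.00322 (SD, n = 2). With miR-427 and miR-428 out of the totals the mean let-7 share was 3.06% ± 1.28 and 0.129% ± 0.00415 (SD, n = 2). With 2 libraries a stage, the smallest p that an exact two-sided permutation test allows is 0.333, and none was run. In RNA from whole explants, fewer cells of a type and less RNA per cell cannot be told apart. Intervals and floors cover counting error only, since the table records no molecular identifiers and PCR copies count as reads.

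At stage 11.5 let-7b, let-7i and let-7f held all let-7 reads. let-7b had 53 and 47 reads, let-7i had 31 and 48, and let-7f had 31 and 24. As shares of let-7 reads, let-7b took 46.1% and 39.5%, let-7i 27.0% and 40.3%, and let-7f 27.0% and 20.2%. let-7b led in library a, and let-7i and let-7b were level in library b. let-7a, let-7c and let-7g had 0 of 234 let-7 reads at this stage, which allows each a share of up to 1.28% of the family. Rows with no read were common at this stage: by mean CPM they shared rank 60 of the 98 listed miRNAs, against rank 93 at stage 26.

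At stage 26 let-7a, let-7f, let-7b and let-7g held all let-7 reads but 1. let-7a had 19 and 14 reads, let-7f had 14 and 17, let-7b had 14 and 11, and let-7g had 9 and 7. let-7a took 33.3% (exact 95% interval 21.4% to 47.1%) and 28.6% (16.6% to 43.3%) of let-7 reads, and let-7f took 24.6% (14.1% to 37.8%) and 34.7% (21.7% to 49.6%). Library a placed let-7a above let-7f and library b placed it below, so the first place at this stage was not settled between them. let-7b took 24.6% and 22.4%, let-7g 15.8% and 14.3%, and let-7c 1 read in library a. let-7i had 0 of 106 let-7 reads, which allows a share of up to 2.83%.

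**Figure D1:**
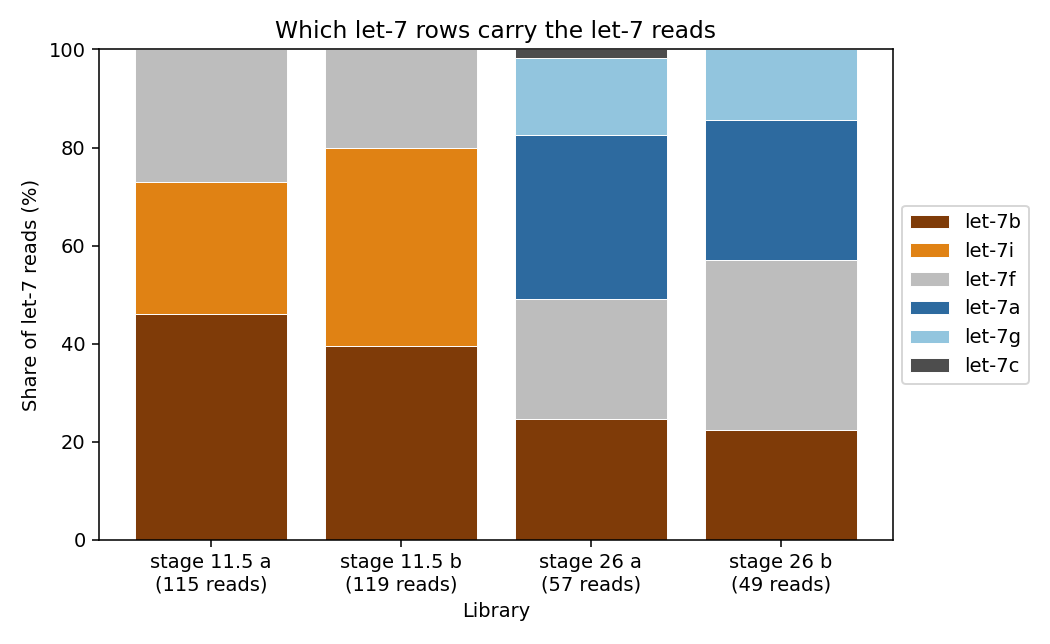
Share of let-7 reads (%, vertical axis from 0) held by each let-7 row in each of the 4 libraries, with the number of let-7 reads under each bar. let-7i is seen in the stage 11.5 libraries alone and let-7a and let-7g in the stage 26 libraries alone, while let-7f takes between 20.2% and 34.7% in all 4.

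These shares compare rows within a library, so no scaling of the libraries enters them. The 3 rows that carry G12T against let-7a (let-7b, let-7g and let-7i) together held 73.0% and 79.8% of let-7 reads at stage 11.5 and 40.4% and 36.7% at stage 26. The 2 rows with neither G12T nor G12A (let-7a and let-7c) held 0 at stage 11.5 and 35.1% and 28.6% at stage 26. The row with G12A, let-7f, held 23.6% ± 4.80 early and 29.6% ± 7.16 late (SD, n = 2). let-7b, the other row seen at both stages, held 42.8% ± 4.66 early and 23.5% ± 1.49 late. The spread of let-7 rows between the early libraries gave a chi-square of 2.42 per degree of freedom and between the late ones 0.516. Over all listed rows the values were 14.3 and 5.66. Where libraries differ beyond counting error this value grows with the reads of a row, and the let-7 rows were low. The comparison does not show that let-7 rows varied less.

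Each row was tested in 1 fit of stage over all 52 miRNAs that passed the filter on low values, with limma on log2(TMM scaled CPM + 50) and Benjamini-Hochberg adjustment at 0.05. Of the 6 let-7 rows 4 passed the filter, and 3 of these were called lower and 1 higher. Over all tested miRNAs 21.2% were called lower and 30.8% higher. In deposited CPM the same 3 let-7 rows were lower and the same 1 higher, against 11.5% and 71.2% of all tested miRNAs. With miR-427 and miR-428 out of the totals these calls held again, against 26.9% lower and 26.9% higher. The let-7a call on that scale takes its early 0 as a level, while the early floor there, 357.0 CPM, lay near its late mean of 400.9 CPM. The 6 miRNAs lower in deposited CPM were let-7b, let-7f, let-7i, miR-126, miR-155 and miR-427, the last 3 named after their values were seen. The median fitted log2 change of the 4 tested let-7 rows was -3.81 after TMM scaling, also with let-7i and let-7a, which were at 0 in a stage, set at their bounds. let-7i and let-7a lay at either end of the 4, so their bounds could not move the median. Members seen at 1 stage alone could pass the filter through that stage only, so the count over tested members does not speak for all 6.

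let-7i showed the deepest fall of the family. It stood at 1368 and 1579 CPM early and at 0 in both late libraries. Both early libraries were high and the stages did not overlap. Taking 3 reads over the late libraries as the floor and the early reads without error, it was at least 44.0-fold lower in share. On the same terms it was at least 174.7-fold lower after TMM scaling and at least 256.6-fold lower with miR-427 and miR-428 out of the totals. It passed the test (limma adjusted p = 0.000311) and in all 17 alternatives. A row at 0 throughout a stage has no spread there, so its p-value rests on the spread at the other stage and on the trend over miRNAs.

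let-7b, the most abundant let-7 row at stage 11.5, was at 2338 and 1546 CPM early and at 298.6 and 262.7 CPM late. Every early library lay above every late one. After TMM scaling it fell by 4.36 on the log2 scale (SE 0.405, limma adjusted p = 0.00228). The ratio of pooled reads was 6.69-fold lower in share (exact 95% interval 4.28 to 10.8) and 26.5-fold lower after TMM scaling (17.0 to 42.9).

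let-7f was at 1368 and 789 CPM early and at 298.6 and 405.9 CPM late. The stages did not overlap, and library a of stage 11.5 was the highest. After TMM scaling it fell by 3.26 on the log2 scale (SE 0.462, limma adjusted p = 0.00722). In pooled reads it was 2.97-fold lower in share (interval 1.88 to 4.77) and 11.8-fold lower after TMM scaling (7.45 to 18.9). The calls of let-7b and let-7f needed both late libraries, and neither row was called without late library a or without late library b. The log2 changes were then -4.28 and -4.05 for let-7b and -2.97 and -3.20 for let-7f, close to those with all libraries, and calls over all tested miRNAs went from 27 to 11 in both fits.

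The rows let-7f and let-7b, seen at both stages, were also set against each other. There were 0.585 and 0.511 let-7f reads per let-7b read early, and 1 and 1.55 late. The late libraries were both higher, but the exact 95% interval of each overlapped those of the early libraries (0.363 to 0.928 and 0.299 to 0.852 early, 0.442 to 2.26 and 0.683 to 3.65 late). At this depth single libraries did not separate the difference from counting error. The reads of this pair were not pooled over the libraries of a stage, as those of miR-99 are below, so a pooled difference was not tested.

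let-7a was the 1 tested let-7 row called higher. It was at 0 in both early libraries and at 405.2 and 334.3 CPM late. Taking 3 reads over the early libraries as the floor and the late reads without error, it was at least 6.58-fold higher in share. On the same terms the bound was 1.66-fold after TMM scaling and 1.13-fold with miR-427 and miR-428 out of the totals. With the counting error of the late reads left out, the last bound is too near 1 to establish a rise on that scale. The test was passed (limma adjusted p = 0.00091), as it was in the 16 alternatives that tested the row. Like let-7i, let-7a was at 0 throughout a stage, so its p-values rest on the spread at the other stage and on the trend over miRNAs. Without library a of stage 26 it had 14 reads and was not tested. With miR-427 and miR-428 left out, 8403 reads remained over both early libraries.

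let-7g and let-7c did not pass the filter. let-7g was at 0 early and at 191.9 and 167.2 CPM late. On the terms used for let-7a, with the late reads taken without error, it was at least 3.19-fold higher in share. After TMM scaling its stage 26 level of 89.3 CPM lay under the early floor of 111.5 scaled CPM, so the counts set no lower bound on a rise on that scale. With no filter the fit called it higher (log2 1.48, limma adjusted p = 0.00547, 0.000575 to 0.00547 in the 4 alternatives that tested it), but that call takes the early 0 as a level with no spread. let-7c had 1 read in all 4 libraries together, and no fold is given.

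**Figure D2:**
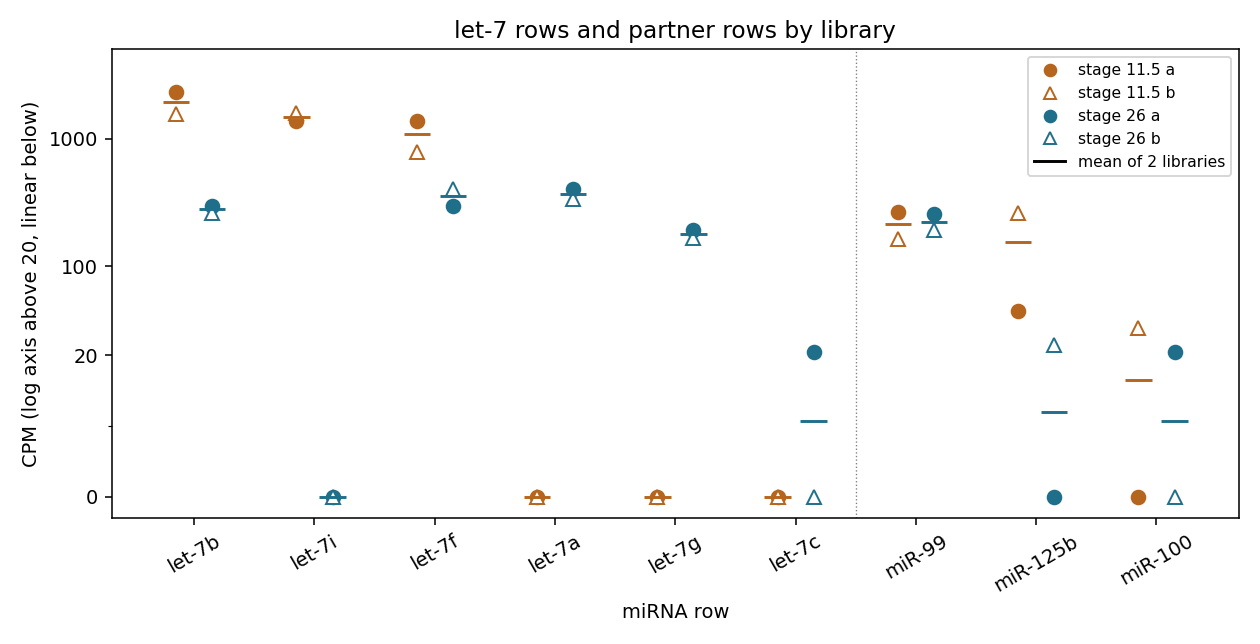
CPM of each let-7 row (left of the dotted line) and each partner row (right) in the 4 libraries, on an axis that is logarithmic above 20 CPM and linear below; circles are library a, triangles library b, and bars the mean of 2 libraries. let-7b, let-7i and let-7f lie higher at stage 11.5, let-7a and let-7g are at 0 there, and miR-99 overlaps between stages.

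The partner rows together had 7 and 14 reads early and 13 and 9 late, and none of the 3 passed the filter. Their mean share was 0.0385% ± 0.0107 and 0.0246% ± 0.00441 of reads (SD, n = 2). Once miR-427 and miR-428 were out of the totals it was 0.248% ± 0.00903 and 0.0267% ± 0.00491 (SD, n = 2). miR-99 held 31 of the 43 partner reads, miR-125b held 10 and miR-100 held 2.

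miR-99, whose family is known for targeting mTOR pathway genes in mammals, had 6 and 5 reads (264.7 and 164.4 CPM) early and 12 and 8 reads (255.9 and 191.0 CPM) late. In CPM the stages overlapped, with a ratio of pooled reads of 1.09 (exact 95% interval 0.497 to 2.51). After TMM scaling the stages did not overlap, and miR-99 was 3.65-fold lower at stage 26 in pooled reads (interval 1.58 to 7.99). With miR-427 and miR-428 out of the totals it was 5.36-fold lower (interval 2.32 to 11.7). Its direction therefore followed the scaling. With no filter its fitted log2 change was -1.56 after TMM scaling (limma adjusted p = 0.0441) and 0.06 in CPM (limma adjusted p = 0.852; 0.0209 to 0.852 in the 7 alternatives that tested it).

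Set against all let-7 reads of the same library, miR-99 took a larger part at stage 26. It had 0.113 and 0.106 reads per let-7b read early, and 0.857 and 0.727 late. Per let-7 read of any row it had 0.0522 and 0.0420 early, and 0.211 and 0.163 late. Both late libraries were higher than both early ones in each ratio. In pooled reads the late ratio was 7.15-fold higher against let-7b (exact 95% interval 2.85 to 18.9), 3.19-fold against let-7f (1.27 to 8.43) and 3.997-fold against all let-7 rows (1.75 to 9.59). These ratios use no scaling, and their intervals cover counting error alone. In each ratio some exact 95% intervals of single libraries overlapped between stages. Against let-7b the interval of late library b (0.254 to 1.99) overlapped the early ones (up to 0.263 and 0.266), and that of late library a did not. Against all let-7 rows the intervals of both late libraries (from 0.103 and 0.0668) overlapped that of early library a (up to 0.117). Against let-7f all overlapped, as in library b (0.0621 to 0.557 early, 0.176 to 1.15 late). In these libraries miR-99 was thus higher late relative to let-7b, to let-7f and to the let-7 rows as a whole, whatever the scaling. Relative to let-7a and let-7g the reads went the other way. Early, both had 0 reads beside 11 of miR-99. Late, let-7a had 33 and let-7g 16 beside 20 of miR-99.

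**Figure D3:**
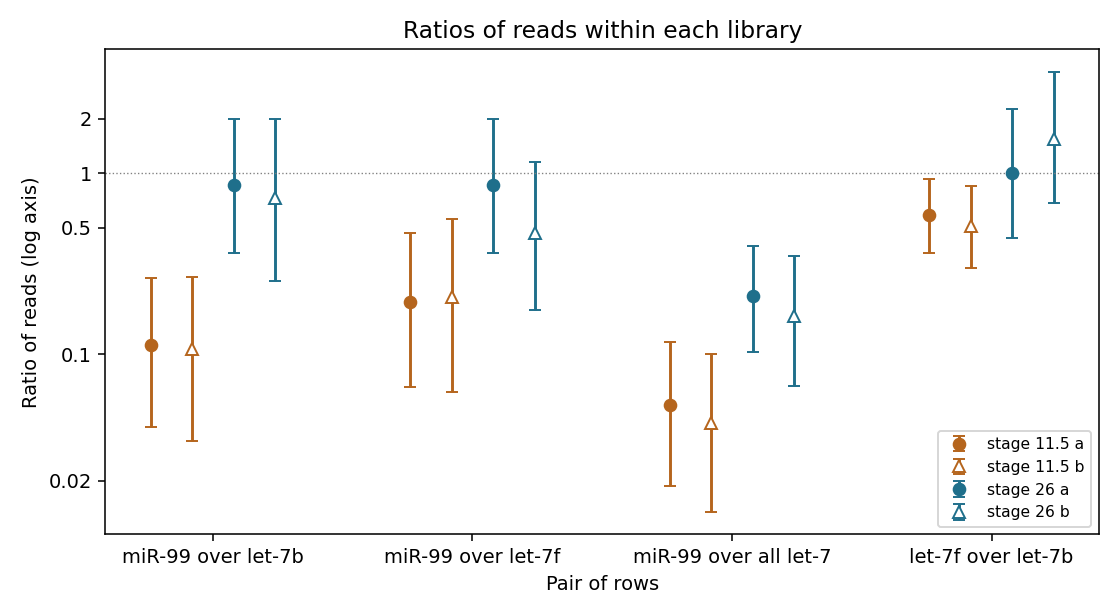
Ratio of reads between pairs of rows within each library (log axis), with exact 95% intervals from counting error as bars; circles are library a and triangles library b. miR-99 lies at 0.106 to 0.113 reads per let-7b read at stage 11.5 and 0.727 to 0.857 at stage 26.

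miR-125b, the relative of lin-4, had 1 and 8 reads (44.1 and 263.1 CPM) early and 0 and 1 read (0 and 23.9 CPM) late. The stages did not overlap, but the early libraries differed 5.96-fold from each other and 8 of the 9 early reads lay in library b. In pooled reads it was 15.1-fold lower at stage 26 in share (exact 95% interval 2.09 to 659.8). With no filter its fitted log2 change was -2.33 after TMM scaling (limma adjusted p = 0.0593) and -1.50 in CPM (limma adjusted p = 0.0684). It passed in 1 of 4 alternatives, with miR-427 and miR-428 out of the totals (limma adjusted p = 0.0208, range 0.0208 to 0.0684). miR-100 had 1 read in library b of stage 11.5 and 1 in library a of stage 26, and no fold is given. Of the partners, miR-125b lay in the direction of let-7b, let-7f and let-7i on every scale, on 10 reads, and miR-99 did so only where the libraries were scaled or miR-427 and miR-428 were left out.

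**Figure D4:**
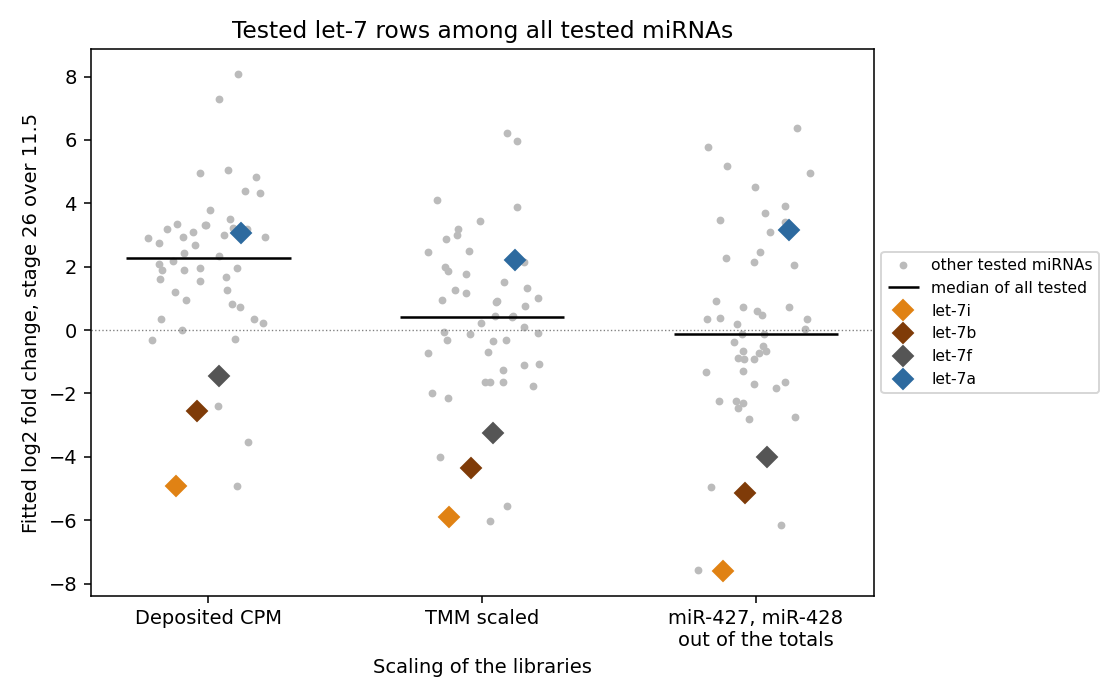
Fitted log2 change from stage 11.5 to stage 26 of the 4 tested let-7 rows (diamonds) and the other tested miRNAs (grey points) under 3 scalings, with the median of all 52 as a line. let-7i, let-7b and let-7f lie under 0 and let-7a above 0 in each.

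The tested rows whose 4 values lay closest to those of let-7b, by Euclidean distance of log2(scaled CPM + 50) centred on each row's mean, were miR-126 (distance 1.14), let-7f (1.15) and miR-427 (1.25). For let-7a, the tested let-7 row with the largest rise, they were miR-107 (0.334), miR-22* (0.474) and miR-30e (0.505), which were also at 0 in both libraries of stage 11.5. These are descriptions over 4 libraries.

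Other miRNA groups were set beside the family, with the share of all tested miRNAs called in the same direction given above for each scale. Of the early embryonic list (miR-302, miR-367, miR-427 and miR-428), 1 of 2 tested rows fell and none rose after TMM scaling. In deposited CPM miR-427 was lower and miR-428 higher, and with both out of the totals both were lower. Of the list of miR-29, 30, 23, 24 and 27, common in differentiated tissues, 2 of 5 tested rows rose and none fell after TMM scaling, against 30.8% called higher over all tested miRNAs. Its median log2 change was then 1.98 (1.87 with the row at 0 set at its bound). In deposited CPM all 5 were higher, with a median of 3.09, against 71.2%. Of the list encoded in Hox clusters (miR-10 and miR-196), all 5 rows were at 0 at stage 11.5. Zeros were common at that stage, where all rows with no read shared rank 60 of the 98 listed. The 1 tested row of the list, miR-10c, rose after TMM scaling and on both other scales.

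The blood and vessel list held 0.0971% and 0.128% of reads early and 0.0277% and 0.0382% late. With miR-427 and miR-428 out of the totals it held 0.734% ± 0.0358 and 0.0357% ± 0.00785 (SD, n = 2). Of its 3 listed rows, the vessel miRNA miR-126 carried this difference, at 750.0 and 1184 CPM early and 85.3 and 214.9 CPM late. It was the 1 tested row and was called lower on all 3 scales, as let-7b was. The red cell miRNA miR-451 was at 88.2 and 65.8 CPM early and 64.0 and 23.9 CPM late. The myeloid miRNA miR-223 was at 132.3 and 32.9 CPM early and 128.0 and 143.3 CPM late, so in CPM it did not share that direction. The part of these cells in the let-7 result was not tested.

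The muscle list (2 rows, miR-206 at 0 early) held 0.0750% and 0.0691% of reads early and 0.143% and 0.16% late, but 0.484% ± 0.145 and 0.164% ± 0.0123 (SD, n = 2) with miR-427 and miR-428 out of the totals. Its 1 tested row, miR-1b, was higher in CPM and lower after TMM scaling (log2 -1.10, limma adjusted p = 0.0436) and with miR-427 and miR-428 out (log2 -1.70). The endoderm list (3 rows, miR-192 and miR-215 at 0 early) held 0.11% and 0.0329% early and 0.303% and 0.279% late, but 0.522% ± 0.482 and 0.316% ± 0.0196 (SD, n = 2) with miR-427 and miR-428 out. The neural list (2 rows, none at 0 over a stage) held 0.0529% and 0.0296% early and 1.13% and 1.28% late, and 0.289% ± 0.177 and 1.303% ± 0.108 (SD, n = 2) with miR-427 and miR-428 out. Of the blood and vessel, muscle, endoderm and neural lists, only the neural one thus had a higher mean share late on both bases. Its miR-218 carried this, with 1 and 0 reads early and 471 and 486 late. Its other row, miR-7, was higher in CPM but had fitted log2 changes of -0.33 after TMM scaling and -0.91 with miR-427 and miR-428 out, neither called. The endoderm row miR-215 was called higher on all 3 scales. The part of these cells in the let-7 results was not tested.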

How the data were processed

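Small RNA libraries were made with the SREK kit, per the labels' protocols, and the deposited values are CPM over the 98 listed miRNAs. The sources used here do not name the sequencer, aligner, mismatches or database release. Stages follow the developmental stage label, because the source names of both b libraries give a slightly later stage. Whole reads were recovered by dividing each column by its smallest nonzero value, and 100% of values came out whole within 1e-06. Count-based tests had been planned as alternatives and were not run, because 98 values per column were too few to check that recovery.

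TMM factors (trimming 30% of M and 5% of A values per tail) were computed from these reads. Rows were tested if they reached 276.7 CPM (10 reads at the median depth) in 2 libraries and 15 reads in all. The test was limma 3.58.1 in R 4.3.3 on log2(scaled CPM + 50) with a mean-variance trend, checked on simulated tables. A fold change on this scale understates low rows. Ratios of pooled reads have exact conditional intervals. Every member was named. The members and lists were chosen with earlier results of these data known. Alternatives changed scaling, pseudocount, filter, libraries, rows and the replicate block. Settings that combined no filter with a scaling, and the crossed pairing, were chosen after seeing the data.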

Additional observations from a re-analysis of the deposited data

How the results depend on the processing

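let-7i and let-7a kept their direction and call in every alternative that tested them (17 and 16), and let-7b and let-7f kept their direction in all 17 and their call in 15, the exceptions being the omission of either stage 26 library. With each library left out in turn the calls over all tested miRNAs ranged from 11 to 42 (27 with all 4), the let-7 rows called lower from 1 to 3, the let-7 rows called higher from 0 to 1, and the partner rows called from 0 to 1. With 1 library left out, the lone library of a stage is assumed to vary like the other stage. No alternative gives let-7i or let-7a a spread at the stage where they were at 0, so their kept calls do not speak for robustness. The let-7 share ranged from 0.391% to 0.507% at stage 11.5 and from 0.117% to 0.122% at stage 26 between single libraries, and was 3.06% and 0.129% with miR-427 and miR-428 out of the totals. Calls over all tested miRNAs numbered 43 of 52 in deposited CPM, where 37 were higher, and 48 of 98 with no filter, where 34 were higher. With no filter they numbered 65 of 98 in deposited CPM (57 higher). They numbered 52 with miR-427 and miR-428 out (33 higher) and 55 with relative log expression factors (41 higher). In these 4 fits with no filter 2 of 6 let-7 rows were called higher, let-7a and let-7g, a share no larger than over all 98 rows in any of them. The late level of let-7g lay under the early floor after TMM scaling and with miR-427 and miR-428 out. Of the 3 partner rows, miR-99 alone was called, as lower, with no filter (14 of 98 lower over all tested miRNAs). The same held with a minimum mean of 100 CPM (13 of 66) and with no filter and relative log expression factors (14 of 98). With no filter and miR-427 and miR-428 out, miR-99 and miR-125b were called lower, against 19 of 98. With the let-7 rows summed before the fit, the sum fell by 3.64 on the log2 scale. No label says that a letter pairs libraries between stages, and a minus b differences correlated with r = -0.26 over 52 miRNAs. With the letter as a replicate block 31 miRNAs were called, and 25 with the crossed pairing, and the 4 let-7 calls held in both. With the block and crossed, the limma adjusted p was 5.63e-08 and 0.0142 for let-7b and 6.32e-06 and 0.0147 for let-7f. For let-7a it was 1.95e-09 and 0.0135. The small values with the block thus rest on a pairing that no label gives. The planned tests on recovered reads were not run. With 49 to 119 let-7 reads and 7 to 14 partner reads per library, depth limits every statement on let-7c, let-7g, miR-100 and miR-125b.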
